A study of Mus musculus with 6 samples.

Results

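Newly formed oligodendrocytes are the short-lived cells between the dividing precursor and the myelinating oligodendrocyte. They were chosen here by counts of unique molecular identifiers (UMIs, counts of single mRNA molecules): at least 4 UMIs summed over Enpp6, Bmp4 and Gpr17, at most 1 UMI of the precursor gene Pdgfra, and at most 1 UMI summed over Gad1, Slc17a6, Cx3cr1 and Cldn5, which mark neurons, microglia and endothelial cells. The rule found 487 of 30824 cells (1.58%). The comparison groups were chosen the same way. Oligodendrocyte precursors had at least 2 UMIs of Pdgfra and at least 2 summed over C1ql1, Cspg4 and Matn4 (1320 cells), and mature oligodendrocytes had at least 3 summed over Mog, Mag, Ermn and Aspa (8707 cells). Newly formed cells that also reached the mature cut, 339 of 487 (69.6%), were kept as newly formed cells, and 93 cells that met both other rules were left out of both groups.

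The cells came from the preoptic region, the most anterior part of the hypothalamus, of female and male adult mice. There were 3 female and 3 male libraries. Each came from a pool of 3 mice, 60 to 70 days old and kept in single cages for the last 3 days. No strain, genotype, agent or allele is named in the labels. The pools, not the mice, are the replicates, and p-values measure the spread between these pools. Tissue was dissociated with protease, sorted for live cells and run on the 10x Chromium droplet platform. The female libraries held 41, 121 and 7 newly formed cells (replicate 1 to 3) and the male libraries 120, 157 and 41. Across libraries the deposited totals lay between 1278429 and 81162330 UMIs. Female replicate 3 was the smallest library, and its 7 newly formed cells gave 38210 UMIs, against 243845 to 1382508 in the other libraries. Across genes, its levels correlated with those of the other libraries at r = 0.79 to 0.83, and those of the other 5 libraries correlated with each other at r = 0.92 to 0.97. Values below are UMIs of a gene per 1000000 UMIs summed over the cells of a group in a library (CPM), which is a level in the pooled RNA of those cells and not a count per cell.

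Oligodendrocyte precursors keep dividing in the adult brain, and those that leave the cell cycle lose Pdgfra, raise the receptor Gpr17, extend a web of fine processes and then either find an axon to wrap or die. The kinase Fyn and the transcription factor Tcf7l2 act in this step, and Enpp6, a choline phosphodiesterase, is a textbook label of cells that have just differentiated. Myelination follows, with large amounts of protein, galactolipids and cholesterol going into the membrane.

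The genes that chose the cells are described without a test. Enpp6 lay between 659.7 and 916 CPM in newly formed cells (median 735), between 0 and 3.49 CPM in precursors (median 1.4) and between 34 and 59.4 CPM in mature cells (median 39). All 6 libraries stood apart in the same order, by construction. Gpr17, a G protein-coupled receptor that marks committed precursors, lay between 260.4 and 500.3 CPM in newly formed cells, between 145 and 373 CPM in precursors and between 2.41 and 6.79 CPM in mature cells. Bmp4, a secreted ligand that holds precursors back from differentiating, lay between 154 and 250.1 CPM in newly formed cells of 5 libraries and at 733 CPM in female replicate 3, against at most 6.47 CPM in precursors and 1.88 CPM in mature cells. The genes of the other rules averaged 4.95 ± 3 CPM for Pdgfra, 1056 ± 226 CPM for Mog and 3171 ± 978 CPM for Mag in newly formed cells (SD, n = 6). Precursors averaged 1027 ± 200.3 CPM for Pdgfra, and mature cells averaged 1987 ± 619 CPM for Mog and 3517 ± 1011 CPM for Mag.

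The newly formed cells were not uniform. They were divided by their summed UMIs of Mog, Mag, Ermn and Aspa, with limits set after their values were seen. The names given here order cells by that sum, and no time was measured. Genes that go along with Mog, Mag, Ermn and Aspa, such as other myelin genes, can rise from early to late cells by that choice. Of the cells, 148 had 0 to 2 (called early here), 128 had 3 to 20 (middle) and 211 had over 20 (late). Their median depth was 4712.5, 6233.5 and 9019 UMIs per cell, against 4242 UMIs in precursors and 5333 UMIs in mature cells. Gpr17 averaged 1206 ± 214 CPM in early, 613 ± 101 CPM in middle and 105 ± 27.3 CPM in late cells (SD over libraries with at least 10 such cells, n = 4, 4 and 5). Bmp4 averaged 412 ± 71.4, 369 ± 63.8 and 40.4 ± 21 CPM in early, middle and late cells. Enpp6 had its highest level in the middle, at 472 ± 125, 982 ± 40.4 and 722 ± 108 CPM in early, middle and late cells. The rule's 3 genes were spread unevenly over these cells. Of 148 early cells, 147 held at least 1 UMI of Gpr17, 103 of Enpp6 and 98 of Bmp4. Of 128 middle cells, 121 held Gpr17, 118 Enpp6 and 91 Bmp4. Of 211 late cells, 78 held Gpr17, 206 Enpp6 and 22 Bmp4. A cell with little of 2 of these genes could enter only through the third, so these counts follow in part from the rule. At a fixed depth of 2000 UMIs, the median number of genes per cell was 1276 in early, 1181 in middle and 1063 in late cells (mean over libraries), against 1302 in precursors and 1020 in mature cells.

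**Figure D1:**
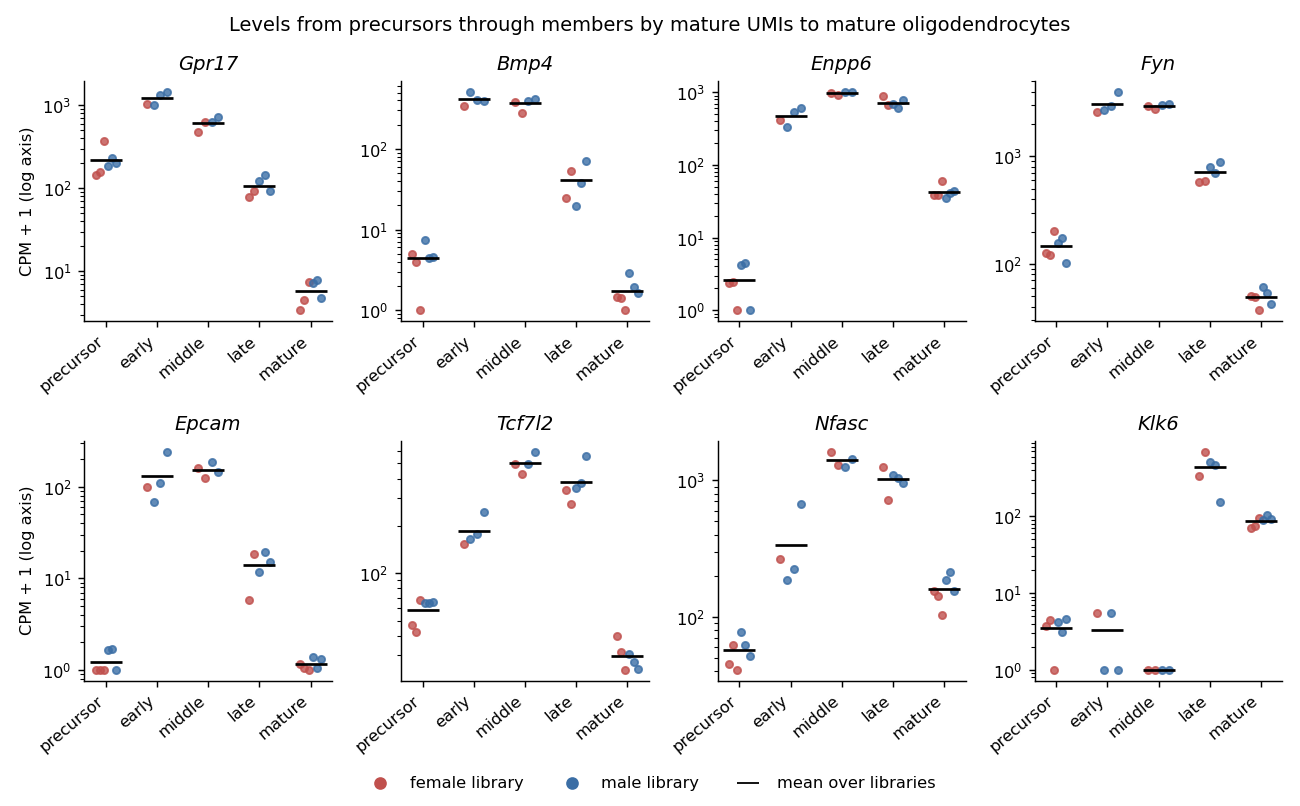
Levels of 8 genes along the lineage, from precursors through early, middle and late newly formed cells to mature oligodendrocytes, on a logarithmic CPM + 1 axis; points are libraries (red female, blue male) and bars are means over libraries. Gpr17 was at 1206 CPM in early and 105 CPM in late cells, Enpp6 and Tcf7l2 had their highest means in the middle, and Klk6 was near 0 in early and middle cells and at 434 CPM in late cells.

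Of the 4 marker genes, Gpr17, Bmp4 and Enpp6 chose the cells and cannot check the name. Tcf7l2, the marker that the rule did not use, averaged 184 ± 40.3 CPM in early, 501 ± 68.7 CPM in middle and 377 ± 105 CPM in late cells, and all 3 means lay above the 57.7 ± 11.3 CPM of precursors and the 28.7 ± 5.86 CPM of mature cells. The late cells also held some genes of mature cells at or near the mature level. Mal averaged 2337 ± 285 CPM in late and 3794 ± 938 CPM in mature cells, Trf 7293 ± 544 and 6774 ± 2556 CPM, and the ferritin chain Fth1 14483 ± 3348 and 14655 ± 2971 CPM. Klk6, a secreted protease of a subset of mature oligodendrocytes, averaged 434 ± 203 CPM in late cells and 86.7 ± 12.3 CPM in mature cells, and was at 2.26 ± 2.61 CPM in early cells and 0 in middle cells. Over all members, the log2 difference of Klk6 from mature cells was 1.48, but 0.17 for members chosen at 6 UMIs or more. Other genes set the late cells apart from mature ones: Opalin averaged 537 ± 119 CPM in late and 1256 ± 283 CPM in mature cells, Il33 140.1 ± 66 and 811 ± 334 CPM, and Fyn 710.0 ± 131 and 47.9 ± 8.5 CPM. The late cells thus mixed genes of both stages, the name fits them only in part, and results for all 487 cells mix them with the earlier ones. Of the members, 6 were called doublets (2 cells in 1 droplet) by Scrublet, 5 of them early and 1 late. No barcode was shared between members of different libraries, and 9 member barcodes were found among other cells of another library, of 479 barcodes that occurred in more than 1 library.

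The threshold crossed a continuum. The 104 members with exactly 4 UMIs pooled to 391 CPM of Enpp6, 104 CPM of Gpr17, 81.9 CPM of Tcf7l2 and 2257 CPM of Mog. The 199 cells with 3 UMIs that met the other cuts pooled to 312 CPM of Enpp6, 65.8 CPM of Gpr17, 40.9 CPM of Tcf7l2 and 2332 CPM of Mog. Of the 568 cells with at least 4 UMIs, 41 were dropped for Pdgfra and 40 more for genes of other cell types.

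Genes outside the rules were tested on the sums per library with the edgeR quasi-likelihood test, with the library as block, and called at a Benjamini-Hochberg adjusted p under 0.05. Other genes of a cell go along with the genes that chose it, so these tests describe how far cells chosen by these counts differed and are no evidence that they form a type. Against precursors, 1906 of 10105 tested genes were called higher in newly formed cells (18.9%) and 3824 lower (37.8%), with a median log2 difference of -0.23 over all tested genes. That split depended on the scaling: with the deepest sum as reference of the TMM scaling, an alternative chosen after seeing the data, 2621 were higher and 2857 lower and the median was -0.03. The number lower was 2290, 2357 and 2217 without female replicate 2, male replicate 1 and male replicate 2. Against mature cells, 2149 of 10200 genes were called higher (21.1%) and 2577 lower (25.3%), with a median of -0.03.

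A further difference between the groups lies in the rules themselves, since the newly formed cells had passed a cut on genes of other cell types and the comparison groups had not. Among mature cells 1826 (21.0%) and among precursors 145 (11.0%) held more than 1 UMI of Gad1, Slc17a6, Cx3cr1 and Cldn5. Summed over 10 neuron markers, newly formed cells held between 52.3 and 1487 CPM, precursors between 827 and 4964 CPM and mature cells between 44.5 and 8516 CPM. With the same cut in all groups, the log2 difference of Cldn11 from mature cells was -0.81 in place of -0.24, that of Klk6 0.85 in place of 1.48, that of Tcf7l2 3.71 in place of 3.51 and that of Gria3 1.57 in place of 0.08. Values under that cut stand beside many of the results that it changed. Apart from that cut, Klk6 did not pass the edgeR test against mature cells for members chosen at 6 UMIs or more (adjusted p = 0.595). With DESeq2 on all members, its log2 difference from mature cells was 0.83 and did not pass (adjusted p = 0.27).

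The sharpest feature of the newly formed cells was a set of genes higher than in both other groups. Fyn, a kinase of the Src family that carries axonal signals into the process, lay between 1379 and 3193 CPM in newly formed cells (median 1755), between 101 and 200.0 CPM in precursors (median 139.7) and between 36 and 60.3 CPM in mature cells (median 48.8). Every newly formed sum lay above every other sum. The log2 difference was 3.69 ± 0.10 from precursors (SE, adjusted p = 1.33e-46, higher in 6 of 6 libraries) and 5.07 ± 0.16 from mature cells (adjusted p = 6.93e-19, 6 of 6). Fyn averaged 3049 ± 639 CPM in early, 2966 ± 136 CPM in middle and 710.0 ± 131 CPM in late cells, so its level was highest in early and middle cells.

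Epcam, an adhesion molecule known from epithelia, lay between 45 and 105 CPM in newly formed cells (median 66.4), and at most 0.698 CPM in precursors and 0.392 CPM in mature cells. The groups did not overlap, and in precursors it rested on 2 UMIs in all and in mature cells on 9. Its log2 difference was 7.11 ± 0.38 from precursors (adjusted p = 1.13e-28) and 8.46 ± 0.30 from mature cells (adjusted p = 6.07e-18), higher in 6 of 6 libraries, and the second was 9.05 without male replicate 1. Epcam averaged 129.7 ± 77.6 CPM in early, 154 ± 25.5 CPM in middle and 13.1 ± 5.52 CPM in late cells. Pooled neurons (6428 cells with at least 5 UMIs of Gad1 and Slc17a6) held 0.363 CPM.

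Tcf7l2, a transcription factor of the Wnt pathway, lay between 288 and 422 CPM in newly formed cells (median 344), between 41.1 and 66.7 CPM in precursors (median 63.8) and between 23.3 and 39 CPM in mature cells (median 27.8). Again the groups did not overlap. It was 2.74 ± 0.11 log2 units higher than in precursors (adjusted p = 4.14e-36) and 3.51 ± 0.12 higher than in mature cells (adjusted p = 3.12e-18), in 6 of 6 libraries each.

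The stretches of 250 bases before the start of the gene are given for Enpp6, which chose most late cells, and for these 3 genes, because they are described above as the kinase, the adhesion molecule and the marker outside the rule (RefSeq, build GRCm38.p6, 5′ to 3′ on the gene's strand, from the first listed start of each gene). Capitals mark short motifs looked for on both strands: ACAATG and ACAAAG of Sox proteins, ATCAAAG of Tcf7l2 and its relatives, CAGCTG and CAGATG of basic helix-loop-helix factors, and CTGGCAC and CTGGTAC of Myrf.
Enpp6 (chr8:46986637-46986886, plus): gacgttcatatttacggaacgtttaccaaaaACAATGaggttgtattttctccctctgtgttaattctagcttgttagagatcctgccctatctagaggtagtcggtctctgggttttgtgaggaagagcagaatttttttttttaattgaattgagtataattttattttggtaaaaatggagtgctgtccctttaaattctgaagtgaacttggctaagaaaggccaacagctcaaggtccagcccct
Tcf7l2 (chr19:55741560-55741809, plus): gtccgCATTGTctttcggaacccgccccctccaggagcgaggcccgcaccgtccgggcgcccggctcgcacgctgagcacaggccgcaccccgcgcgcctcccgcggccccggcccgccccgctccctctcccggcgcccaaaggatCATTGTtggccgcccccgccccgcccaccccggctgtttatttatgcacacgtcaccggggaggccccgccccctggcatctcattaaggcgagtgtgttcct
Fyn (chr10:39369549-39369798, plus): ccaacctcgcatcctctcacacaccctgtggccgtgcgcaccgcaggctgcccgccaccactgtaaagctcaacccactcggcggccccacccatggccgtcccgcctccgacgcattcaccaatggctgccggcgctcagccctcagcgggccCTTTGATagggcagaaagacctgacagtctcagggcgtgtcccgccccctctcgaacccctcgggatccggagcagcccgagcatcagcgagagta
Epcam (chr17:87635729-87635978, plus): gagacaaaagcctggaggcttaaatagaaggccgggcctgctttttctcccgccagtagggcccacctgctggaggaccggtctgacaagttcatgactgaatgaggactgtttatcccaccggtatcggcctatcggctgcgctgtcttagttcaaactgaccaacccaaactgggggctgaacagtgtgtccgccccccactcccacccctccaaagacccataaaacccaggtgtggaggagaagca

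Enpp6 held ACAATG 219 bases before its start, and Tcf7l2 held it on the other strand, as CATTGT, at 245 and 103 bases before. Fyn held ATCAAAG on the other strand, as CTTTGAT, 96 bases before its start. The stretch before Epcam held none of the 7 motifs. Of 27025 promoters of that length, 10.99% held ACAATG and 3.23% held ATCAAAG. These matches describe the letters and say nothing of binding.

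The other leading genes divided by whether they were highest in early, middle or late cells. Matn1, a matrilin of the extracellular matrix, averaged 65.1 ± 17.7 CPM in newly formed cells, against 7.36 ± 4.13 CPM in precursors and 0.192 ± 0.197 CPM in mature cells, with 153 ± 62.6 CPM in early and 22 ± 19.5 CPM in late cells. Gp1bb, the beta subunit of a platelet adhesion receptor, followed the same course with 120.5 ± 25.3 CPM in early and 9.89 ± 10.1 CPM in late cells (log2 4.46 from precursors, 5.15 without male replicate 2). Brca1, a DNA repair protein, averaged 146 ± 57 CPM in newly formed cells, against 6.95 ± 4.75 CPM in precursors and 1.22 ± 0.775 CPM in mature cells. Its level was 67.6 ± 41.2 CPM in early, 258 ± 103 CPM in middle and 99.9 ± 25.1 CPM in late cells.

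Pycr1, a proline synthesis enzyme, Pak4, a kinase of the actin cytoskeleton, Pik3r3, a regulatory subunit of phosphoinositide 3-kinase, and Parvb, an adaptor of integrin adhesions, had their highest means in the middle cells too. Parvb no longer passed against mature cells without the members at the mature cut (log2 0.49, adjusted p = 0.294). Pik3r3 averaged 72.8 ± 16.4 CPM in early, 474 ± 80.3 CPM in middle and 192 ± 57.5 CPM in late cells. Pak4 averaged 310.0 ± 37.4, 471 ± 55.9 and 117 ± 50.4 CPM in the same order. A last set was highest in late cells. Rras2, a small GTPase related to Ras, averaged 4.75 ± 6.85 CPM in early, 48 ± 13.8 CPM in middle and 294 ± 81.8 CPM in late cells, against 7.37 ± 2.61 CPM in mature cells. Tmem2, a hyaluronidase of the cell surface, was at 0 in early cells, 10.7 ± 4.41 CPM in middle cells and 101 ± 24.9 CPM in late cells, against 3.99 ± 2.32 CPM in mature cells (log2 from precursors 5.16, and 5.81 without male replicate 2). Prom1, a protein of membrane protrusions, rose in the same order, with 1.12 ± 2.25, 66.8 ± 29.6 and 134 ± 77.2 CPM. The late cells thus carried genes that neither the earlier cells nor the bulk of mature cells held at that level.

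Among the 20 genes ranked highest over both groups, the smaller of the 2 log2 differences lay between 3.16 (Lrrc42) and 7.11 (Epcam). Others in the set were Rassf10, Kif19a, Cnksr3, Epb41l2, Fam43a, Ptcra and the noncoding transcript 9530059O14Rik. In Ptcra and Lrrc42 single libraries lay far above the rest. Ptcra, a chain of the T cell receptor precursor, lay between 7.02 and 17.5 CPM in newly formed cells of 4 libraries, at 183 CPM in female replicate 3 and at 410.1 CPM in male replicate 3, and its log2 difference from precursors of 3.17 was 2.04 without male replicate 3 and 3.88 without male replicate 2, and that from mature cells of 3.51 was 2.51 without male replicate 3. Lrrc42 reached 680.5 CPM in female replicate 3 and had a median of 142 CPM. The log2 difference of Rassf10 from precursors was 5.24, and 5.83 without male replicate 1.

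**Figure D2:**
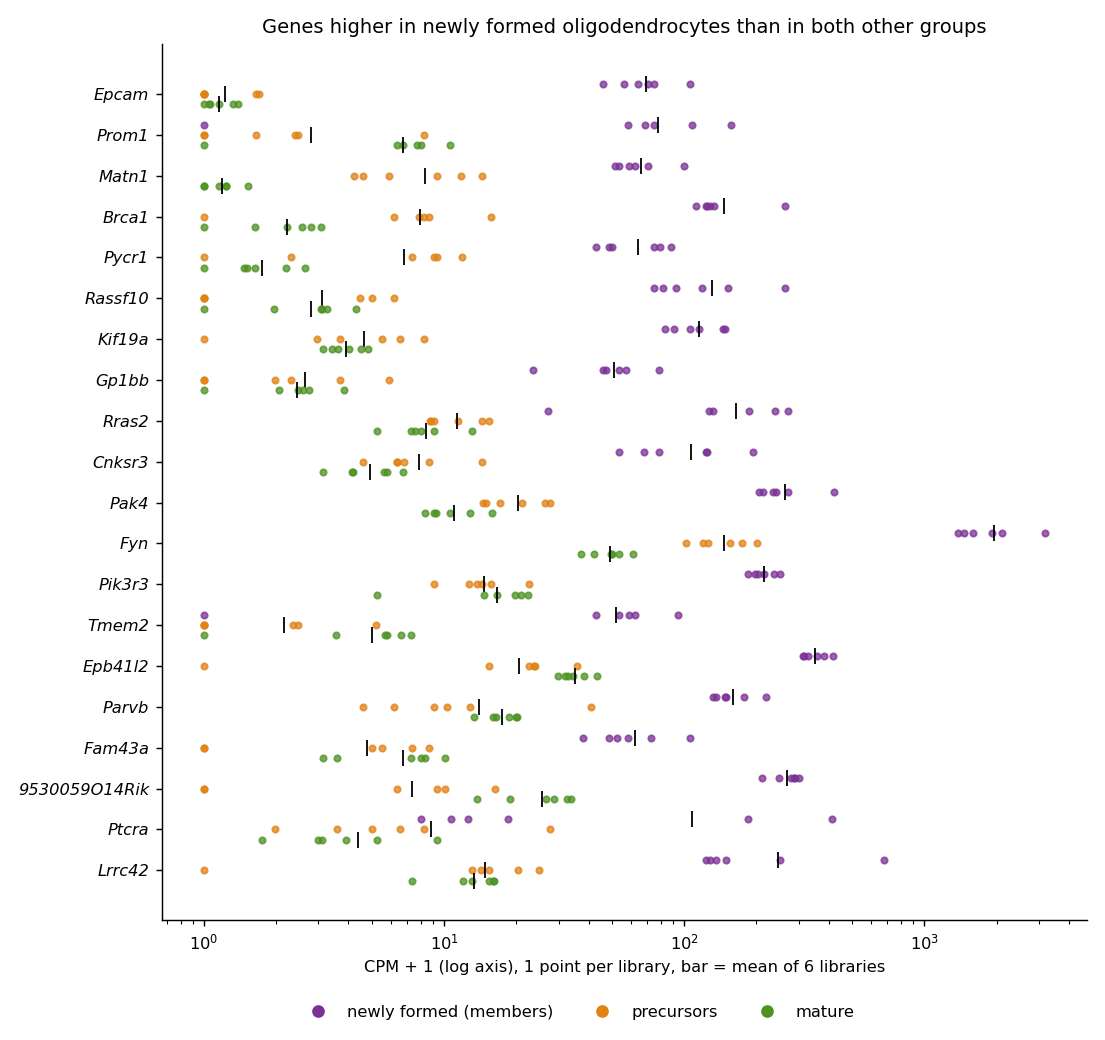
The 20 genes that were called higher in newly formed cells than in both precursors and mature cells, in the order of the smaller difference, on a logarithmic CPM + 1 axis; points are the 6 libraries and bars their means (purple newly formed, orange precursors, green mature). For Epcam, Fyn, Matn1 and Brca1 all 6 newly formed libraries lay above the libraries of both other groups, while Ptcra was above 100 CPM in 2 libraries only and Lrrc42 was highest in female replicate 3.

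Genes known from the literature on committed precursors and newly formed oligodendrocytes were mostly called higher in both comparisons. The list was chosen with earlier results of these data known, and its genes can go along with those that chose the cells. The counts are therefore no check on the name. Of 30 listed genes, 28 passed the filter on low counts in each comparison: 26 were called higher and 1 lower than in precursors, and 26 higher and 0 lower than in mature cells, beside 18.9% and 21.1% of all tested genes higher. Their median log2 differences were 2.68 and 3.45. Sirt2, a deacetylase of tubulin, averaged 5185 ± 1031 CPM in newly formed cells, against 589 ± 106 CPM in precursors and 769.5 ± 169 CPM in mature cells. Nfasc, whose glial form builds the paranodal junction with the axon, lay between 602 and 1231 CPM (median 900.4), against 40 to 77.1 CPM in precursors (median 56) and 102 to 214 CPM in mature cells (median 153), with no overlap. Nfasc was at 336 ± 227 CPM in early and 1399.9 ± 164 CPM in middle cells, and without the members at the mature cut it no longer passed the test against mature cells (log2 0.14).

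Tmem108 and Itpr2 had their highest means in the middle cells as well, at 937 ± 214 and 478 ± 70.4 CPM. Bcas1, a protein of early myelinating cells that is named here outside the rule for named genes and after its values were seen, averaged 645 ± 95.4 CPM in newly formed cells, against 161 ± 26.3 CPM in precursors and 109 ± 22.2 CPM in mature cells. Neu4, a sialidase of the precursor, did not pass the test against precursors (log2 -0.10 ± 0.09, adjusted p = 0.346). Without the late cells it was higher by 0.89, since it averaged 859 ± 190.0 CPM in early and 64.7 ± 18.1 CPM in late cells.

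Transcription factors were called in both directions, with the count lower than in precursors near the 37.8% of all tested genes. Of 29 listed, 28 were tested against precursors, with 13 higher and 12 lower (median 0.02), and 27 against mature cells, with 18 higher and 2 lower (median 1.03); with the cut on other cell types in all groups, 15 were higher and 6 lower than in mature cells. Hes5, a Notch target that blocks differentiation, fell to 23.2 ± 25.7 CPM, against 671 ± 301 CPM in precursors (log2 -4.09 ± 0.17), and was higher than in mature cells (log2 1.69, and 1.07 without male replicate 1). Etv4, an ETS factor downstream of growth factor signals, averaged 0.288 ± 0.454 CPM, against 93.7 ± 49.3 CPM in precursors.

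St18, a zinc finger factor, rose to 69.2 ± 26 CPM, against 1.04 ± 1.38 CPM in precursors (log2 5.54, and 6.21 without male replicate 2), and its level of 65.1 ± 8.42 CPM in mature cells did not differ past the test (log2 0.21, adjusted p = 0.204). With the cut on other cell types in all groups it was lower than in mature cells (log2 -0.41, adjusted p = 0.00223). Nkx6-2, a homeodomain factor, averaged 218 ± 49.1 CPM, against 18 ± 11.3 CPM in precursors and 406 ± 114 CPM in mature cells, with 41.5 ± 11.3, 113 ± 23.7 and 341 ± 63 CPM in early, middle and late cells. Sox6, which keeps precursors immature, was lower than in precursors over all members (log2 -0.54 ± 0.11) and higher without the late cells (log2 0.55). Myrf, the factor that turns on myelin genes, and Sox10, which marks the whole lineage, are named after their values were seen. Myrf averaged 117 ± 24.5 CPM, against 10.1 ± 8.91 CPM in precursors and 84.2 ± 14.7 CPM in mature cells (log2 0.44 ± 0.11, but -0.20 with the cut on other cell types). Sox10 averaged 321 ± 61.2 CPM, against 383 ± 93.6 CPM in precursors (adjusted p = 0.267) and 152 ± 35.4 CPM in mature cells (log2 1.03 ± 0.12, and 0.40 with the cut on other cell types). With that cut Sox10 was called lower than in precursors (log2 -0.24, adjusted p = 0.0172).

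Genes of the BMP and Wnt pathways were counted beside Bmp4 and Tcf7l2. Of 24 listed BMP pathway genes, 18 were tested against precursors, with 2 higher and 14 lower (median -1.21), and 14 against mature cells, with 3 higher and 1 lower. The shares of all tested genes were 18.9% higher and 37.8% lower against precursors, and 21.1% and 25.3% against mature cells. Only the count lower than in precursors exceeded its share clearly, and the count higher than in mature cells was near its share. Bmp7, another ligand, averaged 2.54 ± 1.5 CPM, against 55.3 ± 13.8 CPM in precursors (log2 -4.01 ± 0.31). Id2, an inhibitor of basic helix-loop-helix factors and a BMP target, averaged 52.3 ± 17.9 CPM, against 171 ± 49.1 CPM in precursors (log2 -1.68 ± 0.14) and 30.7 ± 13.5 CPM in mature cells (log2 0.25, adjusted p = 0.284, and 0.67 and called with the cut on other cell types, adjusted p = 0.00127). Smad7, the inhibitory Smad, rose to 107 ± 37.4 CPM, against 11.6 ± 5.75 CPM in precursors (log2 3.23 ± 0.17), and most of it was in late cells (173 ± 29.4 CPM, against 17.3 ± 17.6 CPM in early ones). Of 21 listed Wnt targets and regulators, 11 were tested, with 2 higher and 6 lower than in precursors and 1 higher and 2 lower than in mature cells. The count higher than in precursors is near the 18.9% of all tested genes, and the 6 lower were 3 with the deepest sum as reference of the scaling and 3 without female replicate 3, so nothing is read from the Wnt counts. Axin2, the usual transcriptional readout of the Wnt pathway, was the 1 called higher than in mature cells, at 21.4 ± 15.7 CPM, against 3.85 ± 1.56 CPM (log2 1.65 ± 0.31), and it did not pass the test against 23 ± 6.28 CPM in precursors (adjusted p = 0.198).

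Genes of precursors were lost unevenly. Of 24 listed, all were tested against precursors and 21 were lower and 1 higher (median -2.64), while 22 were tested against mature cells and 16 were higher and 3 lower (median 2.53). Among all tested genes, 37.8% were lower and 18.9% higher than in precursors, and 21.1% were higher and 25.3% lower than in mature cells. Without the late cells, 5 were higher and 15 lower than in precursors (23 tested, median -1.81). Cspg5, a proteoglycan also called neuroglycan C, lay between 41.2 and 78.5 CPM in newly formed cells (median 57.7), against 1661 to 3387 CPM in precursors (median 2240.2), a log2 difference of -5.22 ± 0.12 (adjusted p = 2.07e-51, lower in 6 of 6 libraries). It was already at 94 ± 36.1 CPM in early cells. Ptprz1, a receptor phosphatase, fell less steeply, with 589 ± 157, 348 ± 50.3 and 55.3 ± 29.4 CPM in early, middle and late cells, against 2281 ± 385 CPM in precursors. Vcan, a proteoglycan of the perineuronal matrix, kept 385 ± 109 CPM in early and 351 ± 59.1 CPM in middle cells, against 450.0 ± 62.7 CPM in precursors, and no longer passed the test against precursors without the late cells (log2 -0.23). Tnr, tenascin R, was the listed gene called higher than in precursors, at 537 to 641 CPM (median 573), against 322 to 480.0 CPM (median 398), with a log2 difference of 0.66 ± 0.09 and no overlap.

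Cell cycle genes were low in the newly formed cells. Of 24 listed, 21 were tested against precursors, with 1 higher and 18 lower (median -2.91), beside 18.9% higher and 37.8% lower of all tested genes. Ccnd1, cyclin D1, averaged 9.36 ± 8.9 CPM, against 469 ± 153 CPM in precursors (log2 -5.73 ± 0.17), and 19.4 ± 10.5 CPM in the early cells. Top2a, of the S and G2 phases, averaged 0.376 ± 0.587 CPM, against 28.4 ± 18.4 CPM. Ccnd2 averaged 15.4 ± 8.77 CPM, against 100.2 ± 9.01 CPM. The gene called higher was Cdk4, a partner of the D cyclins, at 241 ± 49.6 CPM, against 194 ± 20.8 CPM in precursors (log2 0.29 ± 0.10, adjusted p = 0.0093, and 0.064 and no longer past the test for members chosen at 3 UMIs or more) and 62.8 ± 4.81 CPM in mature cells (log2 1.78 ± 0.10). Of 14 genes of cell cycle exit, 13 were tested against precursors, with 1 higher and 3 lower. Both counts lay below the 18.9% higher and 37.8% lower of all tested genes. Cdkn1c, the inhibitor p57, was the higher one, at 95.6 ± 51.3 CPM, against 69.4 ± 17.4 CPM in precursors (log2 0.89 ± 0.13, higher in 5 of 6 libraries) and 19.2 ± 7.61 CPM in mature cells, with 207 ± 59.2 CPM in early cells. Cdkn1a, the inhibitor p21, was lower, at 20.3 ± 13.3 CPM, against 61 ± 17.4 CPM in precursors (log2 -1.02 ± 0.18).

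The standing of myelin protein genes depended on which members were counted. Of 19 listed, 18 were tested: 17 were higher and 0 lower than in precursors (median 3.54), and 3 were higher and 4 lower than in mature cells (median -0.02). Among all tested genes, 18.9% were higher and 37.8% lower than in precursors, and 21.1% and 25.3% than in mature cells. The counts against mature cells were near these shares. Against precursors, 7 of 14 were higher (median 0.46) without the members at the mature cut, and 12 of 16 were higher and 1 lower (median 0.97) without the late cells. With the cut on other cell types in all groups, 2 were higher and 13 lower than in mature cells. Cldn11, the tight junction protein of myelin, lay between 2041 and 4791 CPM in newly formed cells (median 3582), between 0 and 101 CPM in precursors (median 90.3) and between 2547 and 5322 CPM in mature cells (median 3959). Newly formed and precursor sums did not overlap (log2 5.51 ± 0.13, adjusted p = 1.45e-52), and newly formed and mature sums did (log2 -0.24 ± 0.23, adjusted p = 0.411); with the cut on other cell types in all groups the second difference was called, at -0.81. Pooled neurons held 58 CPM of Cldn11, which is the order of size of the level in precursors. Cldn11 averaged 451 ± 205, 1996 ± 305 and 5795 ± 999 CPM in early, middle and late cells.

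Single myelin genes followed separate courses. Cnp, which opens channels of cytoplasm in the sheath, was at 3541 ± 1161 CPM in the early cells already, against 317 ± 67.7 CPM in precursors. Among the members, Mal and Opalin were highest in late cells. Mal averaged 55.7 ± 13.1 and 68.3 ± 47.6 CPM in early and middle cells, against 2337 ± 285 CPM in late cells, and over all members it was lower than in mature cells (log2 -1.70 ± 0.25). Opalin averaged 45.3 ± 21.1, 75.4 ± 51 and 537 ± 119 CPM, against 1256 ± 283 CPM in mature cells (log2 -2.00 ± 0.21). Itgb4, an integrin chain, had 1.21 ± 2.42, 8.55 ± 7.41 and 118 ± 16.5 CPM (log2 from precursors 5.67, and 6.45 without male replicate 1). Cd9, a tetraspanin, ran the other way, with 8946 ± 1666, 7618 ± 1311 and 1339 ± 157 CPM, against 2086 ± 350.4 CPM in precursors and 1078 ± 257 CPM in mature cells.

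Enzymes of myelin lipids and of cholesterol were higher in part, and in both lists the counts higher fell without the members at the mature cut. Of 19 lipid enzymes, all were tested, with 12 higher and 3 lower than in precursors (median 0.51) and 7 higher and 4 lower than in mature cells (median 0.10), or 3 higher and 9 lower of 18 with the cut on other cell types in all groups. Beside these stand 18.9% higher and 37.8% lower of all tested genes against precursors, and 21.1% and 25.3% against mature cells. The 4 lower than in mature cells were near that share. Without the members at the mature cut, 6 of 16 were higher and 1 lower than in precursors. Against mature cells, 2 of 17 were then higher and 9 lower. Elovl7, a fatty acid elongase, averaged 251 ± 60.7 CPM, against 9.94 ± 6.34 CPM in precursors and 134 ± 18.8 CPM in mature cells (log2 4.71 ± 0.15 and 0.90 ± 0.12). The log2 difference of Elovl7 from mature cells was 0.26 with the cut on other cell types in all groups and -1.24 without the members at the mature cut. Ugt8a, which makes galactosylceramide, averaged 219 ± 43.8, 487 ± 40.9 and 1025 ± 55.3 CPM in early, middle and late cells, against 146 ± 61.5 CPM in precursors. Gal3st1, which adds sulfate to it, averaged 240.3 ± 75.8 CPM, against 76.9 ± 19.1 CPM in precursors and 108 ± 43.5 CPM in mature cells. Scd1, a fatty acid desaturase, was lower than in mature cells at 16.2 ± 9.69 CPM, against 45.6 ± 5.73 CPM (log2 -1.23 ± 0.17).

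Of 22 cholesterol synthesis genes, 12 were higher and 1 lower than in precursors (22 tested, median 0.47), and 18 were higher and 0 lower than in mature cells (21 tested, median 0.65). The shares of all tested genes were 18.9% higher and 37.8% lower against precursors, and 21.1% and 25.3% against mature cells. With the cut on other cell types the count against mature cells was 12 higher and 3 lower. Hmgcs1, at the head of the pathway, lay between 434 and 759 CPM in newly formed cells (median 572), against 147 to 396 CPM in precursors (median 316) and 252 to 374 CPM in mature cells (median 347), with no overlap. It averaged 187 ± 23.3 CPM in early, 277 ± 72.2 CPM in middle and 729.8 ± 163 CPM in late cells. Without the members at the mature cut, 0 of these genes were higher and 10 lower in each comparison, of 17 and 19 tested, and the log2 differences of Hmgcs1 were -0.70 from precursors and -1.16 from mature cells.

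**Figure D3:**
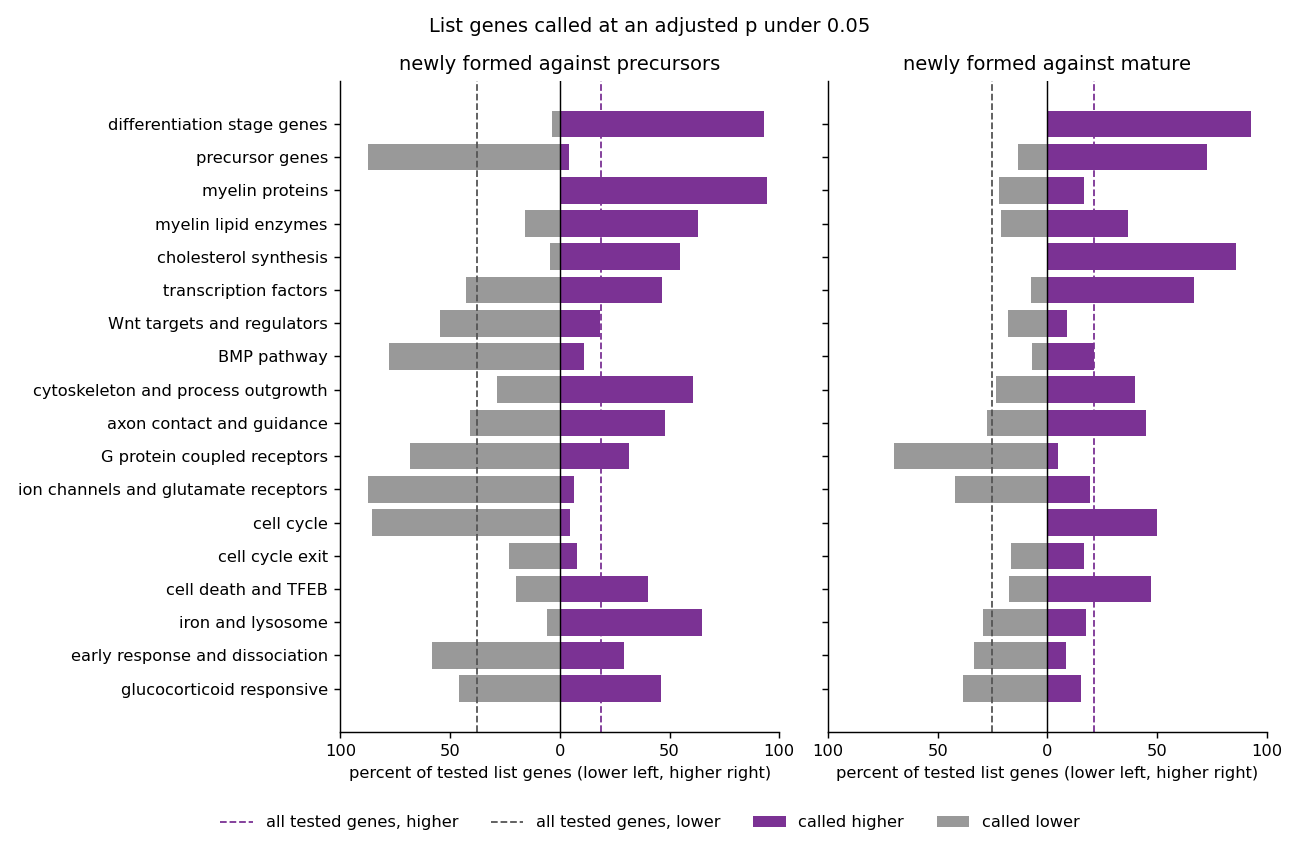
Share of tested genes in 18 lists that were called lower (grey, left) or higher (purple, right) in newly formed cells, against precursors in one panel and mature cells in the other; dashed lines are the shares among all tested genes, 37.8% lower and 18.9% higher against precursors and 25.3% lower and 21.1% higher against mature cells. Stage genes were higher in both panels (26 of 28 tested in each), myelin proteins against precursors (17 of 18) and cholesterol synthesis genes against mature cells (18 of 21), while cell cycle genes (18 of 21) and ion channels (28 of 32) were lower than in precursors.

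Cytoskeletal genes were called in both directions. Of all tested genes, 18.9% were higher and 37.8% lower than in precursors, and 21.1% higher and 25.3% lower than in mature cells. The list's counts lower did not exceed these shares. Of 30 listed, 28 were tested against precursors, with 17 higher and 8 lower (median 0.60), and 30 against mature cells, with 12 higher and 7 lower (median 0.07). Tubb2b, a neuronal-type tubulin, averaged 1768 ± 443 CPM in early, 1377 ± 223 CPM in middle and 161 ± 49.3 CPM in late cells, against 491 ± 71.1 CPM in precursors and 45 ± 20.8 CPM in mature cells (log2 over all members 0.75 ± 0.09 and 3.87 ± 0.16). Tubb4a, the tubulin of oligodendrocytes, averaged 857 ± 415, 1950.1 ± 159 and 2193 ± 788 CPM, against 148 ± 39.6 CPM in precursors and 2127 ± 1157 CPM in mature cells. Arpc1b, a subunit of the complex that branches actin, averaged 20.9 ± 15.5, 289 ± 77.9 and 799 ± 238 CPM, against 24.6 ± 4.33 CPM in precursors and 196 ± 49.1 CPM in mature cells. It was higher than in mature cells over all members (log2 1.30 ± 0.16) and lower without the members at the mature cut (log2 -3.29).

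Genes of axon contact and guidance included 13 called higher and 11 called lower than in precursors (27 of 30 tested), and 13 higher and 8 lower than in mature cells (29 tested). The counts lower are near the 37.8% and 25.3% of all tested genes. Against mature cells there were 15 higher and 5 lower of 24 with the cut on other cell types in all groups. Sema4d, a membrane semaphorin, averaged 89.1 ± 48.7 CPM, against 4.64 ± 3.73 CPM in precursors and 14.1 ± 6.49 CPM in mature cells (log2 4.06 ± 0.20 and 2.66 ± 0.15), and was at 0 in the 7 cells of female replicate 3. Sema5a averaged 170.3 ± 28.5 CPM, against 79.5 ± 25.8 CPM and 12.5 ± 5.79 CPM (log2 1.00 ± 0.11 and 3.45 ± 0.14), and without the members at the mature cut it no longer passed against precursors (0.32, adjusted p = 0.235).

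The listed receptors and channels were largely lower than in precursors. Of 30 G protein-coupled receptors, 19 were tested against precursors, with 6 higher and 13 lower (median -0.98), and 20 against mature cells, with 1 higher and 14 lower (median -1.06). With the cut on other cell types in all groups, 2 were higher and 9 lower than in mature cells, of 17 tested (median -0.78). Among all tested genes, 18.9% were higher and 37.8% lower than in precursors, and 21.1% and 25.3% than in mature cells. Lpar1, a lysophosphatidic acid receptor of early myelinating cells, rose to 288 ± 70.2 CPM, against 6.5 ± 3.64 CPM in precursors (log2 5.38 ± 0.16), with 9.21 ± 7.43, 89.4 ± 13.3 and 492 ± 79.2 CPM in early, middle and late cells. Gpr37, which restrains myelination in mice, was also highest in late cells, with 9.1 ± 9.65, 23.1 ± 7.75 and 451 ± 79.1 CPM, against 631 ± 216 CPM in mature cells (log2 -1.22 ± 0.18). Its relative Gpr37l1 was the receptor called higher than in mature cells, at 610.4 ± 229 CPM, against 815 ± 187 CPM in precursors and 21 ± 7.45 CPM in mature cells (log2 4.47 ± 0.13). The log2 difference of Gpr37l1 from precursors was -0.42 ± 0.09, and -0.21 without male replicate 2, where it no longer passed (adjusted p = 0.093). Ednrb, the endothelin B receptor, fell to 9.51 ± 6.33 CPM, against 399 ± 85.2 CPM in precursors (log2 -4.71 ± 0.16). Grm5, a metabotropic glutamate receptor, averaged 17.7 ± 8.98 CPM, against 178 ± 27.2 CPM in precursors and 50.6 ± 34 CPM in mature cells. Neurons held 182 CPM of Grm5, and with the cut on other cell types in all groups it no longer passed the test against mature cells (log2 -0.28).

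Of 35 ion channels and ionotropic glutamate receptors, 32 were tested against precursors, with 2 higher and 28 lower (median -2.07), and 31 against mature cells, with 6 higher and 13 lower (median -0.36). The shares of all tested genes were 18.9% higher and 37.8% lower against precursors, and 21.1% and 25.3% against mature cells. The 6 higher than in mature cells were near that share. With the cut on other cell types in all groups, 12 were higher and 3 lower than in mature cells, of 25 tested. Kcnip3, a calcium-binding partner of potassium channels, averaged 5 ± 4.17 CPM, against 302 ± 55.4 CPM in precursors (log2 -5.31 ± 0.19). Cacng4, which trafficks AMPA receptors, averaged 121 ± 55.4, 49.4 ± 14.4 and 5.08 ± 3.51 CPM in early, middle and late cells, against 372 ± 50.9 CPM in precursors. The AMPA receptor subunit Gria3 followed, with 93.6 ± 38.2, 35.7 ± 19.3 and 8.87 ± 5.52 CPM, against 207 ± 15.6 CPM in precursors (log2 -2.54 ± 0.14). Gria1 averaged 9.51 ± 8.51 CPM, against 49.5 ± 26.7 CPM in precursors and 64.6 ± 37.4 CPM in mature cells, and neurons held 217 CPM of it.

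Iron handling and lysosomes, cell death and the early response were smaller groups of results. Of 18 iron and lysosome genes, 17 were tested, with 11 higher and 1 lower than in precursors (median 0.47) and 3 higher and 5 lower than in mature cells, or 1 higher and 9 lower with the cut on other cell types. Without that cut, the counts against mature cells were near the 21.1% higher and 25.3% lower of all tested genes. Trf, transferrin, rose to 3996 ± 1081 CPM, against 76.6 ± 30 CPM in precursors (log2 5.78 ± 0.12), and it averaged 125 ± 73.7 CPM in early and 188 ± 75.5 CPM in middle cells. Its log2 difference from 6774 ± 2556 CPM in mature cells was -0.81 ± 0.26 (adjusted p = 0.0135), and without male replicate 3 it no longer passed (-0.76, adjusted p = 0.0652). Fth1 rested on the late cells as well: it averaged 1441 ± 166 and 1329.8 ± 216 CPM in early and middle cells, against 1374 ± 300.2 CPM in precursors. Ctsl, cathepsin L of the lysosome, differed from these, at 686 ± 167, 909 ± 141 and 769.6 ± 204 CPM in early, middle and late cells, against 192 ± 26.8 CPM in precursors and 156 ± 24.5 CPM in mature cells (log2 2.12 ± 0.10 and 2.19 ± 0.13).

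Many newly formed oligodendrocytes are known to die in adult mice, and TFEB is known to drive that death. Of 20 genes of cell death and the TFEB family, 15 were tested against precursors, with 6 higher and 3 lower, and 17 against mature cells, with 8 higher and 3 lower (median 0.59). The shares of all tested genes were 18.9% and 37.8%, and 21.1% and 25.3%, in the same order. Tfeb lay between 26.2 and 127 CPM (median 62.6), against 13.3 to 43.4 CPM in precursors (median 16.2) and 31.1 to 52.7 CPM in mature cells (median 42.2), so the groups overlapped. Its log2 difference was 1.98 ± 0.18 from precursors and 0.80 ± 0.14 from mature cells, the second being 0.17 and no longer past the test with the cut on other cell types. Mitf, a relative of TFEB, averaged 33.8 ± 18.6 CPM, against 11.2 ± 8.12 CPM in precursors and 11.2 ± 3.13 CPM in mature cells, with 88.1 ± 10.5 CPM in middle cells. Bcl2, which blocks cell death, fell to 1.71 ± 2.12 CPM, against 60.5 ± 18.6 CPM in precursors (log2 -4.15 ± 0.32, and -5.03 without male replicate 2) and 6.26 ± 2.55 CPM in mature cells.

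Early response genes, which dissociation can induce, were not raised in the newly formed cells as a list. Summed over 24 genes, newly formed cells held between 5161 and 10199 CPM, precursors between 6663 and 8985 CPM and mature cells between 6669 and 11766 CPM, with overlap. Of the 24, 7 were higher and 14 lower than in precursors (median -0.68), and 2 were higher and 8 lower than in mature cells. Socs3, a brake on cytokine signals, averaged 8.01 ± 6.81 CPM, against 193 ± 43.8 CPM in precursors (log2 -4.23 ± 0.19). Fosb averaged 50.5 ± 17.6 CPM, against 174 ± 92.3 CPM in precursors and 81.5 ± 14 CPM in mature cells, and Junb averaged 57.8 ± 29.3 CPM, against 188 ± 42.6 CPM and 139 ± 41.2 CPM. Of 16 genes that respond to glucocorticoids, 13 were tested, with 6 higher and 6 lower than in precursors and 2 higher and 5 lower than in mature cells, or 0 higher and 9 lower with the cut on other cell types. Beside both lists stand 18.9% higher and 37.8% lower of all tested genes against precursors, and 21.1% and 25.3% against mature cells. Nothing is read from the glucocorticoid counts.

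The genes that led among those lower in newly formed cells than in both other groups had high levels in neurons. All 10 that led by the smaller difference (among them Trh, Clstn3, Rgs17, Cartpt, Nrxn3, Cnih2, Pnmal2, Usp29 and Sms) had their highest pooled level in neurons. Nrxn3, a presynaptic adhesion molecule, averaged 22.3 ± 15.5 CPM in newly formed cells, against 163 ± 66 CPM in precursors and 122 ± 76.8 CPM in mature cells, while neurons held 465 CPM. With the cut on other cell types in all groups, its log2 differences were -2.27 and -0.67, and Clstn3 gave -2.71 and -0.86. The 10 listed neuron markers were all lower in both comparisons, 9 of them against mature cells under that cut, and the part of the rules' cut in the remaining differences was not tested. Summed over 10 astrocyte markers, newly formed cells held 26.2 to 181 CPM, precursors 991 to 1179 CPM and mature cells 182 to 311 CPM. Other genes low against mature cells were not those of neurons: Il33, a cytokine of the nucleus, averaged 74.5 ± 56.3 CPM, against 811 ± 334 CPM in mature cells (log2 -3.00 ± 0.23), and Ptgds, prostaglandin D synthase, averaged 1498 ± 654 CPM, against 9531 ± 2569 CPM (log2 -2.81 ± 0.28), and both were also lower than in mature cells under that cut.

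Between the sexes, newly formed cells differed in 3 of 6622 tested genes, all on the sex chromosomes. Xist, the RNA of the inactive X chromosome, had 1167, 1182 and 1309 CPM in the female libraries, against 0, 2.17 and 0 CPM in the male libraries (log2 female minus male 9.69 ± 0.41, adjusted p = 7.92e-12, and 12.16 without male replicate 2, which held the only 3 UMIs of the male cells). Eif2s3y had no UMI in female cells, against 107.6, 109.9 and 69.7 CPM in the male libraries (adjusted p = 4.92e-06), and was at least 47.2-fold lower in female cells. Ddx3y had no UMI in female cells, against 101, 127 and 45.1 CPM (adjusted p = 3.69e-05), and was at least 49.4-fold lower in female cells. Both folds use a floor of 3 UMIs over the female group and cover counting error only. Ddx3y no longer passed without female replicate 2 (adjusted p = 0.0878). The share called was 0.0151% higher and 0.0302% lower in female cells. No gene off the sex chromosomes was called by edgeR or DESeq2, while 131 genes had an unadjusted p under 0.05 by edgeR and 30 by DESeq2. Of 8 tested X genes, the other 7 did not pass, among them Eif2s3x at 75.5 ± 26 CPM in female and 51 ± 9.55 CPM in male cells (SD, n = 3 each).

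Whether the steps between stages differed by sex was tested by an interaction term. Against precursors 0 of 8294 genes were called, with 266 at an unadjusted p under 0.05, and the smallest p was that of Synpr, a synaptic vesicle gene (log2 -2.39 ± 0.47, adjusted p = 0.0592). Against mature cells 0 of 8702 were called, with 256 at an unadjusted p under 0.05. None of the lists outside the sex chromosomes held a gene called between sexes over all members, while without the members at the mature cut the early response list held 1 higher and 1 lower.

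Newly formed cells were a smaller part of the lineage in female than in male libraries at the limit of what 3 against 3 libraries can show. They made up 3.24%, 3.77% and 4.07% of all newly formed, precursor and mature cells in female libraries, against 5.31%, 5.55% and 5.25% in male libraries. The groups did not overlap, with a mean of 3.69 ± 0.421% in female and 5.37 ± 0.159% in male libraries (difference -1.68 percentage points, exact two-sided permutation p = 0.1, the smallest this design allows). They did overlap, with p = 0.2 by the same exact permutation test, for members chosen at 6 UMIs or more, without the late cells, and with cells thinned to 2000 UMIs. As a share of all cells they made up 0.886%, 1.24% and 1.71% in female libraries, against 1.65%, 2.31% and 2.09% in male libraries, which overlapped (difference -0.738 percentage points, exact permutation p = 0.2). The Wilson 95% interval of the 7 cells in female replicate 3 reached from 0.829% to 3.48% of cells.

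By stage, early cells made up 0.130%, 0.380% and 0.488% of cells in female libraries, against 0.619%, 0.617% and 0.815% in male libraries, with no overlap (exact permutation p = 0.1). Late cells made up 0.510 ± 0.0192% in female and 0.838 ± 0.312% in male libraries, also with no overlap (exact permutation p = 0.1), while middle cells made up 0.436 ± 0.261% and 0.494 ± 0.035% (exact permutation p = 0.8). The gap in late cells was narrow, with 0.523% in female replicate 2 and 0.537% in male replicate 1. As a share of the lineage late cells overlapped, at 1.90% in female replicate 1 and 1.73% in male replicate 1, and per 100 precursors they overlapped too. Per 100 precursors there were 26.9 ± 5.92 newly formed cells in female and 43 ± 10.5 in male libraries, with overlap (exact permutation p = 0.2). The adjustment covered 6 comparisons: all members in both shares and per 100 precursors, and each stage as a share of all cells. The p of 0.1 became 0.2, that of 0.2 became 0.24 and that of 0.8 stayed at 0.8. The stages were cut on raw UMIs, at limits set after values were seen, and their shares were not counted at a fixed depth. Median depth of the newly formed cells was 7313, 7633 and 5162 UMIs in female libraries and 5611.5, 7544 and 5917 UMIs in male libraries. The part of depth in the stage shares was not tested. Cells lost in dissociation or sorting and fewer cells in the tissue cannot be told apart in these shares.

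**Figure D4:**
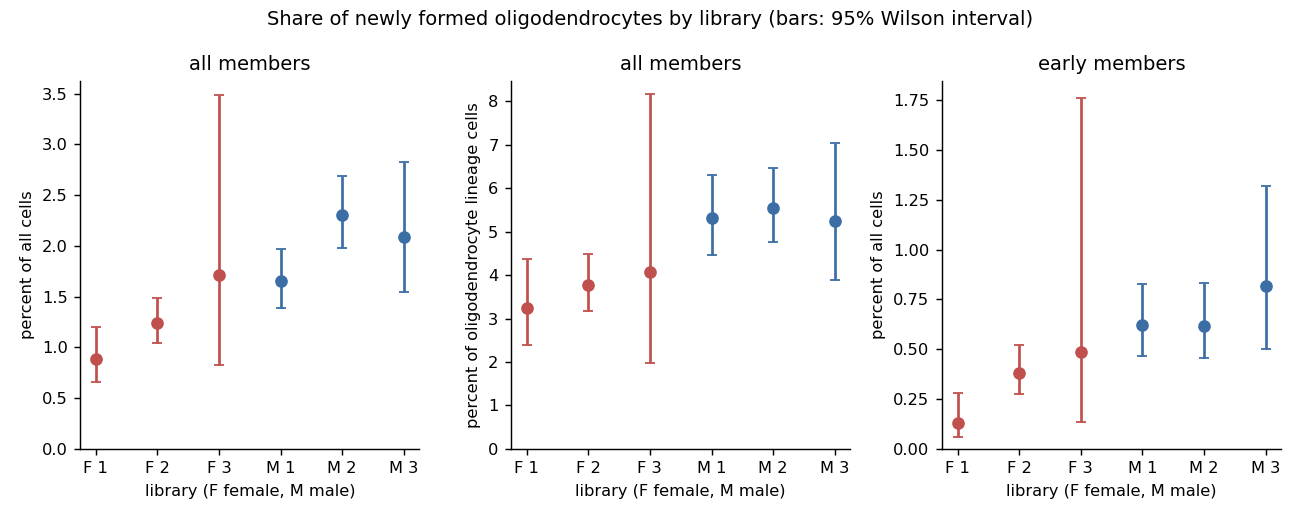
Newly formed cells per library as a percentage of all cells, as a percentage of newly formed, precursor and mature cells together, and early cells as a percentage of all cells; bars are 95% Wilson intervals, which cover counting error only, and female libraries (red) stand left of male libraries (blue). The lineage share was 3.24% to 4.07% in female and 5.25% to 5.55% in male libraries, and the share of all cells overlapped between the sexes.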

How the data were processed

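Single cells of 6 libraries were measured on the 10x Chromium platform. The authors deposited 1 table of raw UMI counts per gene and cell (27998 genes, 31299 barcodes), made with Cell Ranger 2.0.0 on build mm10, per the submitters' processing notes. The labels do not say whether counting used the strand. Cells were assigned to libraries by the number at the end of the barcode, per the labels. No deposited cell annotation was used here. Barcodes with under 500 genes or over 20% mitochondrial UMIs were dropped, which left 30824. Doublets were called with Scrublet in scanpy 1.11.5 (expected rate 0.06) and kept. The members, comparison groups and gene lists were chosen with earlier results of these data known.

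UMIs were summed per library and group. Genes were kept by filterByExpr (minimum count 10), scaled by TMM and tested with edgeR 4.0.16 (quasi-likelihood test, R 4.3.3), with the library as block between stages and without a block between sexes; p-values were adjusted by Benjamini-Hochberg and called under 0.05. The 15 genes of the rules and 13 mitochondrial genes stayed in library sizes and were not tested. Low counts limit precision most in female replicate 3. The script was tested on simulated data. DESeq2 1.42.0 and other filters, scalings and cell rules were tried as alternatives.

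Named genes were, per stage comparison, the 10 per direction with the largest change among called genes with a mean of at least 50 CPM in the higher group and the same sign in every library with at least 20 members; the 20 highest over both groups and the 10 lowest; up to 4 per list with the smallest p; Tcf7l2; and, between sexes, the tested genes of the X and Y lists. Of these, the text describes a selection made after their values were seen. Some genes are not reported here.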

Additional observations from a re-analysis of the deposited data

Results flagged for a closer look

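In 5 genes the log2 difference of newly formed cells from precursors (with 50 CPM added) in female replicate 3 stood far from that of the other 5 libraries, and in Brca1 so did that from mature cells. That library had 7 newly formed cells, and chance flags about 1 in 20 such groups. Rras2 was at 0.27, against 1.60 to 2.31 in the others. Brca1 was at 2.64, against 1.41 to 1.73 from precursors, and at 2.64, against 1.67 to 1.82 from mature cells. Pak4 was at 2.61, against 1.99 to 2.10. Fam43a was at 1.63, against 0.80 to 1.08. Lrrc42 was at 3.87, against 1.41 to 2.22.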

How the results depend on the processing

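Against precursors 5730 genes were called, and the count was 1859 (1564 of them shared) without the members at the mature cut, 3675 (3033 shared) without those with over 20 mature UMIs (chosen after seeing the data), 2605 (2520 shared) with cells thinned to 2000 UMIs, and 4211 to 5710 with 1 library left out. Against mature cells 4726 were called, and the count was 2810 (2791 shared) with no replicate block, 2403 (2085 shared) with thinned cells, and 3751 to 5406 with 1 library left out. Between sexes the count of 3 was 12 with no expression filter, 8 (1 shared) without the members at the mature cut, and 2 to 7 with 1 library left out (7 without female replicate 3, 5 without male replicate 3). The share differences kept their sign in every alternative, from -0.352 to -0.964 points of cells and from -0.890 to -2.05 points of the lineage. Deviations of same-numbered female and male libraries correlated at r = -0.07, 0.37 and 0.30 (replicate 1 to 3). Female replicate 2 and female replicate 3 each correlated best with the male library of the same number. Female replicate 1 correlated best with male replicate 2 (r = 0.25). Whether replicate numbers pair the female and male libraries was not tested. With the replicate block 6 genes were called between sexes.

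Most sign changes came with other choices of members. Without the members at the mature cut, the log2 differences from precursors were 0.90 for Neu4, 0.63 for Sox6, -0.16 for Mal, -0.70 for Hmgcs1, -0.16 for Fth1 and 0.089 for Gpr37l1. Those from mature cells were -1.25 for St18, -0.73 for Myrf, -2.81 for Smad7, -1.39 for Cnp, -5.43 for Klk6, -1.24 for Elovl7, -1.56 for Ugt8a, -1.16 for Hmgcs1 and -3.29 for Arpc1b. Without those with over 20 mature UMIs, they were 0.89 for Neu4, 0.55 for Sox6, -0.087 for Hmgcs1, -0.084 for Fth1 and 0.22 for Gpr37l1 from precursors, and -0.081 for Myrf, -1.50 for Smad7, -0.54 for Cnp, -6.32 for Klk6, -0.065 for Elovl7, -0.66 for Ugt8a, -0.37 for Hmgcs1 and -0.50 for Arpc1b from mature cells. With the cut on other cell types in all groups, those from mature cells were -0.41 for St18, -0.20 for Myrf, -0.42 for Smad7, -0.46 for Cnp and -0.14 for Ugt8a. With at least 6 UMIs they were 0.40 for Neu4 and 0.083 for Gpr37l1 from precursors, with at least 3 UMIs 0.44 for Itgb4 from mature cells, and with thinned cells 0.026 for Sox6 from precursors. The cause was not tested. Ugt8a, at 0.45 from mature cells, no longer passed without any 1 of the libraries other than female replicate 3 (0.30 to 0.42). The 7 cells of female replicate 3 limit what that library can show.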
